A study of Bos taurus with 48 samples.

Results

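A set of 73 genes was abundant in bovine oocytes and close to absent from the cumulus cells around them. The genes were selected on their measured FPKM, a fragment count scaled to transcript length and library size. Entry required a value above 0.5 in at least 8 of 16 oocytes, such a value in fewer than 8 of 16 samples of each cumulus type, and a mean FPKM of 100 or more across the oocytes. Of the 24616 genes listed, 1957 (7.95%) met the detection part of the rule, and the 73 genes are 3.73% of these. The rule left out 5 well-known oocyte genes (GDF9, BMP15, FIGLA, ZAR1 and H1FOO). Because these same values chose the genes, the difference between oocytes and cumulus cells is given as a description and was not tested for them.

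The libraries come from 16 cumulus-oocyte complexes (COCs) of Bos taurus, numbered from 176 to 192. Each COC was aspirated from an antral follicle of a slaughterhouse ovary and kept for a homogeneous oocyte cytoplasm and many cumulus layers. Trypsin and pipetting parted it into the outer cumulus cells (outerCCs), the cumulus cells nearest the zona pellucida (innerCCs) and the denuded oocyte, with 1 library for each and 48 in all. No treatment, age or breed was given, and which COCs came from the same cow is not given in the sources used here. PolyA+ RNA was amplified with SMART-seq2, a protocol made for the RNA of single cells. An oocyte library holds 1 cell and a cumulus library many, so fewer cells of a type and less RNA per cell cannot be told apart.

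The bovine oocyte grows inside the follicle while arrested in meiosis, and it stores mRNA and protein for the resumption of meiosis and for the first cleavages of the embryo. Many of the stored transcripts encode germ-line proteins: parts of the meiotic chromosome axis, kinases that set the timing of meiosis, proteins that hold mRNA dormant or guard the genome against transposons, and maternal factors that gather beneath the oocyte membrane. Cumulus cells are somatic, are joined to the oocyte by projections that cross the zona pellucida, and do not enter meiosis.

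A symbol was available for 52 of the 73 genes, and the other 21 are given by their Ensembl identifiers. By role, 3 genes act on meiotic chromosomes, 2 are meiotic kinases, 4 bind RNA, 7 belong with the NLRP, lattice, ubiquitin and nuclear import proteins, 7 act in transcription, 9 in junctions, membranes and transport, 6 in metabolism and metal binding and 10 in secretion and signalling, while 3 are small noncoding RNAs and 1 (C4orf33) was placed in no list.  The genes just inside the mean of 100 were MGC133764 (103 ± 64.1 FPKM, SD, n = 16) and RIPPLY2 (101 ± 34.7), and those just outside were PNLDC1 (99.99 ± 63.8) and RARRES1 (99.6 ± 51.4).

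Some libraries stood apart from the others of their type. Summed over the 73 genes, oocyte FPKM was 6536 in COC 180, 9084 in COC 190 and 12863 in COC 184, while the other 13 oocytes lay between 18732 and 25783. The outerCC library of COC 191 and the innerCC library of COC 190 held oocyte transcripts far above the other cumulus libraries, as described further on. The innerCC libraries of COCs 176 to 184 held few genes, and the innerCC libraries of COCs 185 to 192 held many. These sets of 8 COCs were read from the data and are not conditions of the study. Marker genes could be matched only through gene lists mostly drawn on the contrast between oocytes and cumulus cells. Their values are thus a description and not an independent check of the labels. The 7 of 12 oocyte markers with a symbol (among them DDX4 and DAZL, germ-cell RNA-binding proteins) were all detected only in oocytes. Their summed FPKM ran from 831 to 2037 in oocytes, with a median of 1.16 in outerCCs and 2.79 in innerCCs. The 5 of 16 cumulus markers with a symbol had a median sum of 2008 in outerCCs, 216 in innerCCs and 18.7 in oocytes, and 1 of the 5, HAS2, a hyaluronan synthase, was itself detected only in oocytes.

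Of the 73 genes, 69 were over 0.5 FPKM in all 16 oocytes and the fewest oocytes for any gene was 10. In cumulus cells the median FPKM was 0 for 32 genes in outerCCs and for 45 in innerCCs, and the highest median of any gene was 0.419 in outerCCs and 0.421 in innerCCs. The lowest oocyte was above the highest outerCC for 33 of the 73 genes and above the highest innerCC for 57. Over the 12428 genes detected in at least 1 sample type these shares were 13.6% and 20.1%, and since the rule used this contrast nothing is read from the counts. Without the outerCC of COC 191 the first count was 64 (17.2% of all detected genes), and without the innerCC of COC 190 the second was 66 (23.1%).

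**Figure D1:**
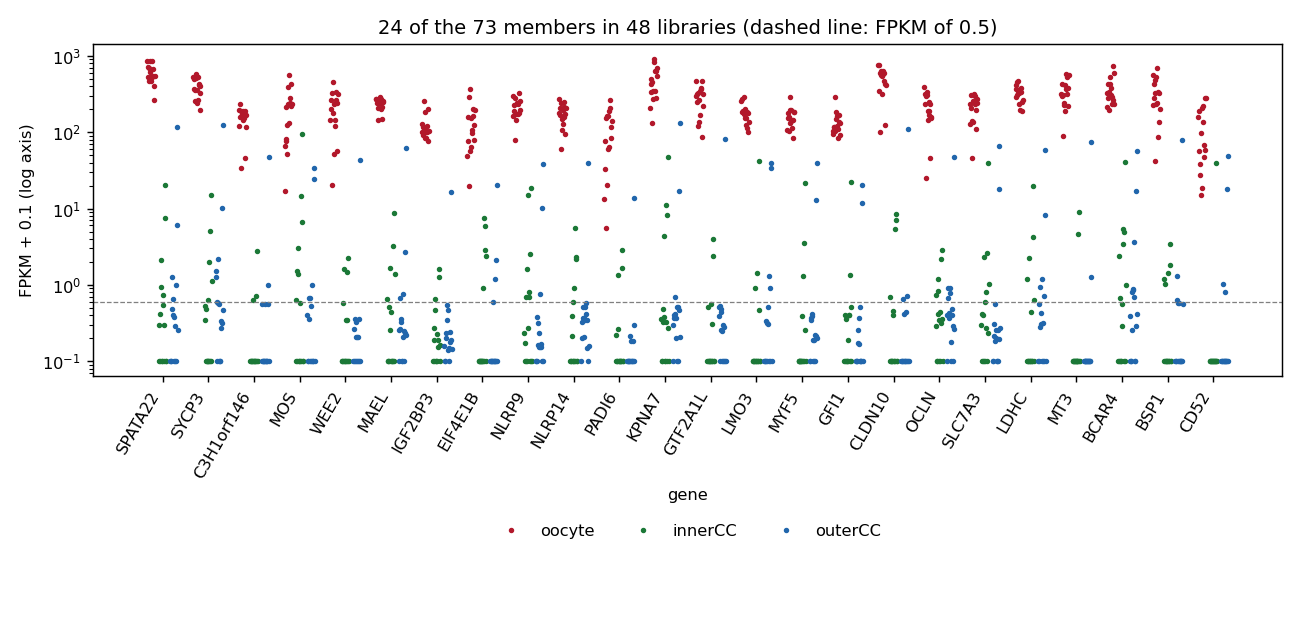
FPKM + 0.1 on a log axis of 24 of the 73 genes, with 1 point for each of the 16 oocytes (red), 16 innerCCs (green) and 16 outerCCs (blue); the dashed line marks an FPKM of 0.5. Oocyte points lie far above the line, most cumulus libraries lie at or below the line, and the highest blue point of most genes is the outerCC of COC 191.

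Among genes of meiotic chromosomes, SPATA22, which acts with single-stranded DNA in meiotic recombination, had an FPKM of 263 at the lowest, 546 at the median and 871 at the highest oocyte (598 ± 171, SD, n = 16). SYCP3, a component of the axial element of the synaptonemal complex, ranged from 196 to 575 with a median of 388 (391 ± 115). C3H1orf146, whose product is known for a part in crossover formation, ranged from 33.9 to 236 with a median of 166 (154 ± 53.2). For all 3 genes the lowest oocyte was that of COC 190 or COC 180. No oocyte overlapped a cumulus library for SPATA22 or SYCP3, where the highest outerCC reached 116 and 125. C3H1orf146 reached 47.1 in the outerCC of COC 191, above its lowest oocyte, and no more than 0.903 in the other outerCCs.

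MOS, the kinase that turns on the MAP kinase cascade in oocytes and holds the mature egg in metaphase, varied widely, from 16.7 in COC 176 through a median of 217 to 564 in COC 186 (210 ± 151, SD, n = 16). WEE2, the oocyte kinase that restrains CDK1 and so keeps meiosis arrested, ranged from 20.1 in COC 180 through 217 to 461 in COC 181 (210 ± 119). Their means were alike, and the oocytes at the top and at the bottom were others for each gene. MOS was over 0.5 FPKM in 5 outerCCs and 7 innerCCs, and WEE2 in 1 outerCC and 3 innerCCs.

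The RNA-binding genes spanned the steadiest and some of the less steady members. MAEL, a protein of the piRNA pathway that silences transposons, ranged from 145.8 to 287 with a median of 245 (237 ± 43.1, SD, n = 16), the narrowest relative spread of all 73 genes. EIF4E1B, an oocyte form of the cap-binding protein, ranged from 19.9 through 117 to 373 (138 ± 93.0), and IGF2BP3, which binds and stabilises mRNA, from 77.1 through 109 to 259 (124 ± 49.2). ADAD1, a double-stranded RNA-binding protein of germ cells, ranged from 18.2 through 117 to 219 (112 ± 50.0). EIF4E1B and ADAD1 were lowest in the oocyte of COC 180, where IGF2BP3 was highest.

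KPNA7, a maternal importin that carries proteins into the nucleus, was the most abundant of the maternal-factor list, at 131 in the lowest, 442 in the median and 910 in the highest oocyte (472 ± 222, SD, n = 16). NLRP9 and NLRP14, members of a family of maternal proteins, ranged from 78.9 through 214 to 326 and from 59.6 through 177 to 271. RNF18 (a ring finger protein) ranged from 51.3 through 180 to 280 and ANKRD40 (an ankyrin repeat protein) from 32.1 through 171 to 334. All 5 genes were lowest in the oocyte of COC 180. PADI6, needed for the cytoplasmic lattices of the oocyte and picked here after its values were seen, was at 5.44 in that oocyte against a median of 101 and a highest value of 267.

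The transcription genes held germ-line and somatic factors side by side. GTF2A1L, a germ-cell form of the general factor TFIIA, ranged from 86.4 through 305 to 469 FPKM. LMO3, a LIM-only cofactor, ranged from 99.9 through 180 to 289. MYF5, best known for setting the muscle lineage, ranged from 83.2 through 150 to 287. FOXR1, a forkhead factor, ranged from 36.3 through 156 to 293, and GFI1, a repressor known from blood cells, from 84.5 through 120 to 293. Lowest values came from COC 190 for GTF2A1L, LMO3 and MYF5 and from COC 180 for FOXR1, while GFI1 was at its highest in COC 180.

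In the junction and membrane list, CLDN10, a claudin of tight junctions, ranged from 100 through 553 to 770 FPKM (492 ± 195, SD, n = 16), and OCLN, the junction protein occludin, from 24.9 through 212 to 393 (216 ± 101). For both genes the oocytes of COCs 180 and 190 were the lowest, at 100 and 126 for CLDN10 and 24.9 and 45.8 for OCLN. SLC7A3, a transporter of cationic amino acids, ranged from 45.8 through 232 to 319. RAB3C, a small GTPase of vesicle release, ranged from 57.6 through 216 to 372, and RPGRIP1, known from the photoreceptor cilium, from 87.2 through 168 to 278.

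LDHC, the germ-cell lactate dehydrogenase, ranged from 190 through 329 to 472 FPKM (325 ± 85.4, SD, n = 16). MT3, a metal-binding metallothionein, ranged from 88.1 through 319 to 586, HIGD1C, a protein of the hypoxia-induced domain family, from 47.0 through 193 to 319, and ELOVL4, which makes very long fatty acids, from 60.6 through 122 to 217. PHYHIPL ranged from 81.1 through 165 to 202, and PDE6C, the cone phosphodiesterase, from 49.9 through 113 to 147. Each of these genes had its lowest oocyte above the values of all innerCCs, and HIGD1C was over 0.5 FPKM in 1 outerCC and 1 innerCC.

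Among secreted and signalling genes, BCAR4, an oocyte transcript of cattle, ranged from 194 through 318 to 735 FPKM and had its highest value in the oocyte of COC 190. BSP1, which carries the name of a seminal plasma protein, ranged from 42.5 through 302 to 690. DAPL1 ranged from 25.3 through 162 to 264, and SOSTDC1, a secreted antagonist of BMP and Wnt signals, from 80.0 through 124 to 250. CD52, a small surface glycoprotein of lymphocytes and the male tract that was picked after its values were seen, ranged from 15.1 through 83.3 to 284.

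The genes without a symbol included the most abundant of the set. ENSBTAG00000032264 was listed at 0 in the oocyte of COC 180 and reached 8051 in that of COC 183, with a median of 2452. ENSBTAG00000046521 ranged from 126 through 1444 to 2709, ENSBTAG00000046943 from 37.6 through 565 to 1278, ENSBTAG00000038232 from 211 through 522 to 1074, and ENSBTAG00000001219 from 63.6 through 480 to 858. The first of these genes was over 0.5 FPKM in 3 outerCCs and in no innerCC. The 3 small noncoding RNA genes were the spliceosomal RNAs U1 (118 to 2099.5 FPKM, median 562) and U12 (0 to 617, median 119) and the nucleolar RNA SNORA20 (0 to 575, median 117). U12 was over 0.5 FPKM in 14 of the 16 oocytes and SNORA20 in 10. The libraries were made from polyA+ RNA, and how well they measure small noncoding RNAs was not tested. Such genes have near-identical copies in the genome and are shorter than most sequenced fragments, so their FPKM is uncertain. The NLRP, BSP and claudin genes also belong to families with similar members, and reads with several matches were discarded. Whether this affected their FPKM was not tested.

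Variation between oocytes was described with the coefficient of variation (CV), the SD over the mean of FPKM. Its median over the 73 genes was 0.422 (jackknife SE over COCs 0.0649), with an interquartile range from 0.344 to 0.558. Over the 1106 other genes with a mean oocyte FPKM of 100 or more the median CV was 0.326 (jackknife SE 0.0496). Without the oocytes of COCs 180 and 190 the medians were 0.325 and 0.251. The lowest CVs belonged to MAEL (0.182), PHACTR3, a regulator of protein phosphatase and actin (0.199), and PDE6C (0.226), and the highest to SNORA20 (1.18), U12 (1.02) and ENSBTAG00000031558 (0.941). By role, the median CV was 0.276 in the metabolic list, 0.294 in the meiotic chromosome list and 0.344 in the transcription list. It was 0.470 in the maternal-factor list, 0.521 in genes without a symbol, 0.644 for the meiotic kinases and 1.02 for the small RNAs.

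**Figure D2:**
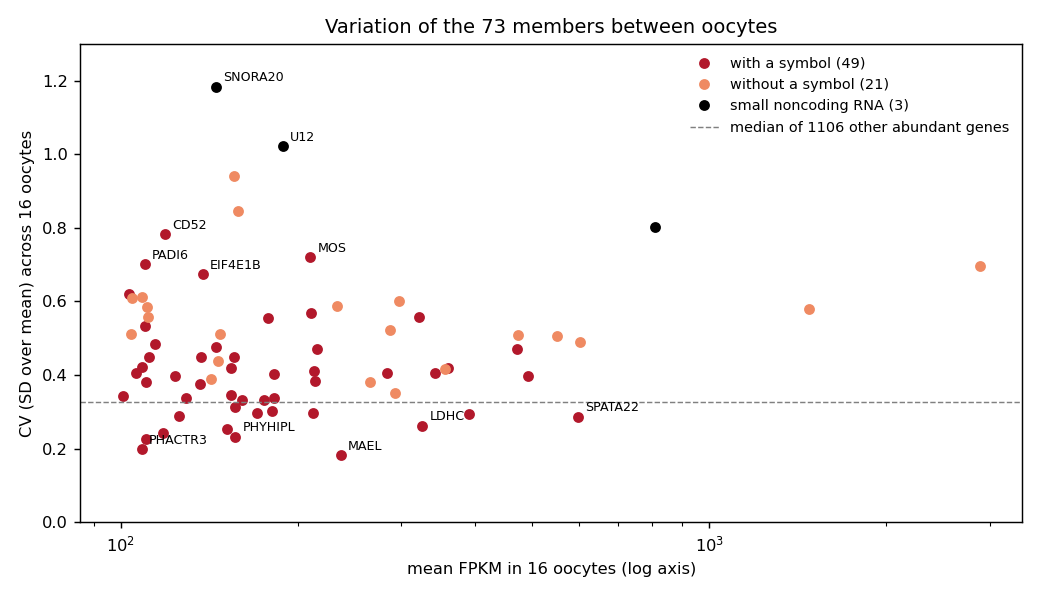
CV across 16 oocytes against mean oocyte FPKM (log axis) of the 73 genes, split into genes with a symbol (49), without a symbol (21) and small noncoding RNAs (3); the dashed line is the median CV of 1106 other abundant genes (0.326). The small RNAs lie between 0.804 and 1.18, and MAEL is the lowest point at 0.182.

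The oocytes of COCs 180 and 190 lay at the low end for most of the genes. For 41 genes the lowest oocyte was that of COC 180 and for 18 that of COC 190, which together are 80.8% of the 73 genes and compare with 70.7% of the other abundant genes. On the log2(FPKM + 1) scale, the median difference from each gene's median over oocytes was -1.84 in COC 180 for the 73 genes and -0.999 for the other abundant genes. In COC 190 these values were -1.06 and -0.70, and in COC 184 they were -0.50 and -0.32. The share of library FPKM taken by the 73 genes was 1.78% in COC 180, 2.21% in COC 190 and 2.73% in COC 184, against 3.07 to 4.48% in the others. Relative depth, taken from the smallest FPKM increments and settled for 14 oocytes, was 0.865 in COC 180 and 0.351 in COC 190, where COC 185 is 1 and the highest oocyte 2.07. Among those 14, the oocyte of COC 190 was thus the shallowest and that of COC 180 was not. The oocyte of COC 187 was nearly as shallow (0.398), and its summed FPKM over the 73 genes was 21087. The part that depth or RNA quality had in the low sums was not tested.

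The low values were uneven across the genes. A total of 62 genes were below their median in both oocytes, and 33 were more than 1 below it on the log2 scale in both, among them CLDN10, OCLN, WEE2, BSP1, GTF2A1L, SLC7A3, ADAD1 and C3H1orf146. The 6 genes above their median in both were BCAR4, SNORA20, GFI1, ELOVL4, IGF2BP3 and PHACTR3. In COC 180, GFI1, ELOVL4, IGF2BP3 and PHACTR3 reached their highest oocyte values, at 293, 217, 259 and 150 FPKM. MOS went its own way as well, at 77.0 in COC 180 and 424 in COC 190. TESC, a calcium-binding protein, and TMCC3, a protein of the endoplasmic reticulum, both picked after their values were seen, were lowest in COC 176 (49.0 and 52.4) and highest in COC 186 (257 and 194), as MOS was. A log2 difference was also taken as the oocytes of COCs 176 to 184 minus those of COCs 185 to 192. Its median was -0.15 for the 73 genes and -0.17 for all 10327 genes detected in oocytes. Single genes spread widely around these medians, from -1.78 (PADI6) to 0.59 among the 73 genes and from -3.75 to 2.29 among all. MOS was at -1.76, with a median FPKM of 79.3 in the first set and 261 in the second.

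**Figure D3:**
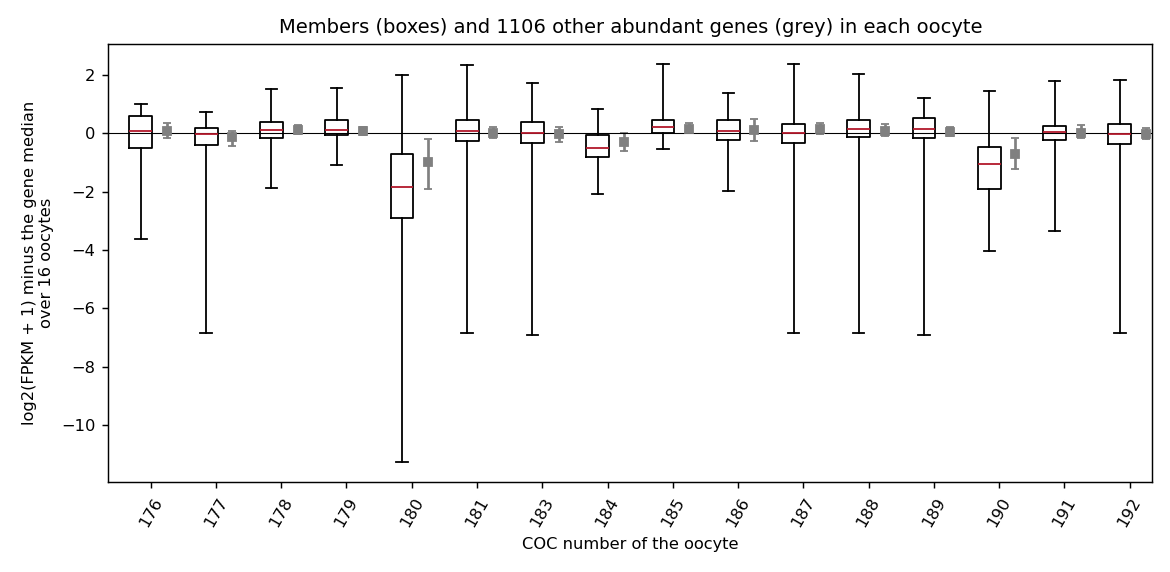
Difference of log2(FPKM + 1) from the gene's median over 16 oocytes, by the COC number of the oocyte; boxes show quartiles and median of the 73 genes, whiskers the full range, and grey squares with bars the median and quartiles of 1106 other abundant genes. The medians of COC 180 (-1.84) and COC 190 (-1.06) are the lowest boxes, and in both the grey squares lie higher (-0.999 and -0.70).

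For 6 pairs of genes with a shared role, values were correlated across the 16 oocytes on log2(FPKM + 1), with two-sided permutation tests and adjustment over the 6 pairs. The tests set each pair against no correlation. Pairs without a shared role were not compared, so a correlation cannot be tied to the role. The part that shifts of whole oocytes, such as those of COCs 180, 184 and 190, had in the correlations was not tested. SYCP3 and SPATA22 gave Pearson r = 0.817 (permutation p = 9.0e-05, adjusted p = 0.00027) and Spearman rho = 0.829 (p = 0.00019, adjusted p = 0.00114). Without the 2 oocytes farthest from the median SYCP3 level r was 0.750, and within COCs 176 to 184 and COCs 185 to 192 it was 0.775 and 0.892 (exact permutation p = 0.0303 and 0.00389). NLRP9 and NLRP14 gave r = 0.857 (permutation p = 8.0e-05, adjusted p = 0.00027) and rho = 0.774 (p = 0.00068, adjusted p = 0.00204), with r = 0.687 once the 2 farthest oocytes were left out and 0.946 and 0.705 within the sets (exact permutation p = 0.000843 and 0.0496). Both pairs kept an adjusted permutation p below 0.05 without COCs 180 and 190, at r = 0.696 (adjusted p = 0.0176) and r = 0.747 (adjusted p = 0.0112).

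In the other pairs r fell once a few oocytes were left out, or the test was not passed. OCLN and CLDN10 gave r = 0.901 (permutation p = 0.00029, adjusted p = 0.00058) and rho = 0.621 (p = 0.0123, adjusted p = 0.0245), and within the sets r was 0.916 and 0.940 (exact permutation p = 0.0146 and 0.0257). Without COCs 180 and 190, which were also the 2 farthest, r fell to 0.460 over 14 oocytes (adjusted permutation p = 0.195). Whether the relation rests on COCs 180 and 190 was not tested. MAEL and ADAD1 gave r = 0.729 (permutation p = 0.00466, adjusted p = 0.00699) but rho = 0.347 (p = 0.188, adjusted p = 0.282), and r = 0.0531 without the same oocytes (adjusted permutation p = 0.876). Within the sets this pair had r = 0.793 and 0.734 (exact permutation p = 0.0367 and 0.0791). EIF4E1B and IGF2BP3 gave r = -0.489 (permutation p = 0.0562, adjusted p = 0.0674), rho = -0.129 (p = 0.633, adjusted p = 0.681), with r = -0.225 once the 2 farthest oocytes were left out and -0.491 and -0.394 within the sets (exact permutation p = 0.217 and 0.357). MOS and WEE2 gave r = 0.0774 (permutation p = 0.776, adjusted p = 0.776), rho = 0.112 (p = 0.681, adjusted p = 0.681), with r = 0.0795 once the 2 farthest oocytes were left out and 0.0233 and -0.261 within the sets (exact permutation p = 0.953 and 0.522).

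The 73 genes were also read in the cumulus libraries one by one. Their summed FPKM in outerCCs was 6.75 at the lowest and 140 at the median, and in innerCCs 5.01 and 25.9. As a percentage of the oocyte of the same COC, the median was 0.708% in outerCCs (0.686% without COC 191, 1.24% with each library scaled to the same 75th percentile) and 0.165% in innerCCs. The outerCC of COC 191 reached 4468, or 22.3% of its own oocyte, and the next outerCC, that of COC 190, reached 501, or 5.52%. The innerCC of COC 190 reached 1199.5, or 13.2% of its own oocyte, and the next innerCC, that of COC 189, reached 236. The outerCC of COC 191 and the innerCC of COC 190 lay well apart from the others of their type.

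**Figure D4:**
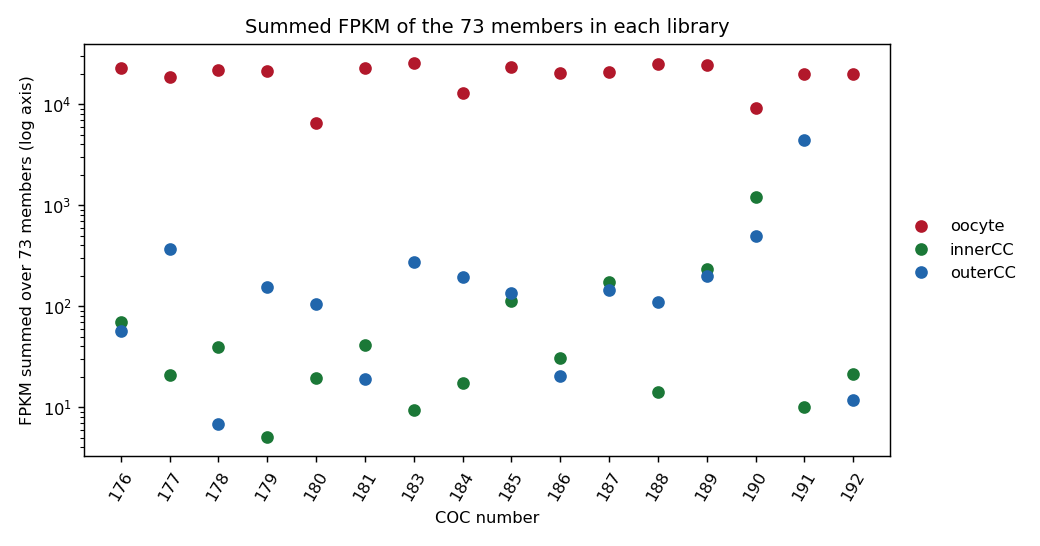
FPKM summed over the 73 genes (log axis) in each library, by COC number, for oocytes (red), innerCCs (green) and outerCCs (blue). Oocytes lie between 6536 and 25783, and among cumulus libraries the outerCC of COC 191 (4468) and the innerCC of COC 190 (1199.5) are the highest.

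In the outerCC of COC 191, 72 of the 73 genes were over 0.5 FPKM, and for 68 genes it was the highest outerCC. Gene by gene its level was 21.6% of its own oocyte at the median, with quartiles at 17.5% and 25.9%. SPATA22 was at 116 there and at 406 in the oocyte, MAEL at 62.5 and 260, CLDN10 at 111 and 428, and MOS at 34.3 and 218. Across the 73 genes, Spearman's rho with the oocyte of COC 191 was 0.855, and with the other 15 oocytes it ran from 0.131 to 0.814. The genes share 1 library on each side and are not independent, so this is a description. ENSBTAG00000031558 was the single gene above its own oocyte (97.9 against 9.90), and SNORA20 was listed at 0. In the oocyte library of the same COC, the cumulus markers INHA (an inhibin subunit), INHBA (the activin subunit) and CYP11A1 (the first enzyme of steroid synthesis) stood at 109, 51.4 and 16.3 FPKM, against oocyte medians of 0.366, 0.328 and 0.0818. The next highest oocytes had 18.0 for INHA and 5.01 for INHBA, while CYP11A1 was higher in the oocyte of COC 181, at 17.2. CYP19A1, also a matched cumulus marker, was at 0.938 in the oocyte of COC 191 (oocyte median 0.0465). HAS2 was at 9.25 there, below its oocyte median of 16.5. The 5 matched cumulus markers summed to 187 in that oocyte, and the next oocyte had 57.4. Whether material passed between these libraries was not tested.

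In the innerCC of COC 190, 64 of the 73 genes were over 0.5 FPKM, and for 52 of the 71 genes with any innerCC value above 0 it was the highest innerCC. The level was 7.62% of the own oocyte at the median, with wider quartiles (3.82% and 19.3%) than in the outerCC of COC 191. MOS was at 94.4 there against 424 in the oocyte, TMCC3 at 63.0 against 168, LMO3 at 41.6 against 99.9, and CD52 at 39.7 against 57.7. OCLN was at 2.74 against 45.8, and 9 genes were listed at 0. Spearman's rank correlation with the own oocyte was 0.477, and with the other oocytes it ran from -0.0969 to 0.386. The outerCC of the same COC held 41 genes over 0.5 FPKM, with LMO3 at 33.6, TMCC3 at 35.4 and MOS at 24.5, and its rho was 0.400 with the own oocyte against at most 0.250 with the others. The innerCC of COC 189 held 61 genes at a low level, and its highest rho was with the oocyte of COC 177, not with its own. Of the leukocyte markers, 3 of 8 had a symbol (CD3E, CSF1R and LCP1), and all 3 were detected only in oocytes. Their symbols came from lists drawn on the contrast between oocytes and cumulus cells, so that detection is a description only. Their sum was 27.1 in the innerCC and 13.8 in the outerCC of COC 190, where the oocytes ranged from 7.01 to 24.4. These sums came from CSF1R (19.4 and 6.55) and LCP1 (7.74 and 7.29), while CD3E was at 0 in both libraries. VWF, the only matched marker of endothelium and theca, was at most 0.619 in any cumulus library.

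**Figure D5:**
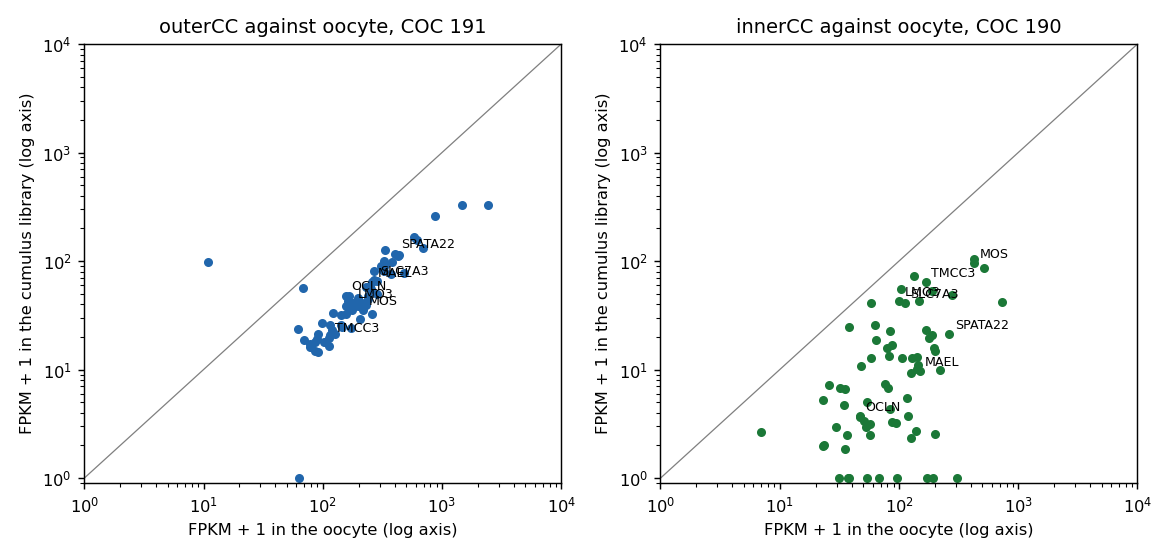
FPKM + 1 of the 73 genes on log axes, in the outerCC against the oocyte of COC 191 (left) and in the innerCC against the oocyte of COC 190 (right); the line marks equal values. On the left the points run along a band near 21.6% of the oocyte with 1 gene above the line, and on the right they scatter more widely, with 9 genes at 0.

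Between the cumulus types the 73 genes could hardly differ by construction: each was required to be over 0.5 FPKM in fewer than 8 libraries of either type, and all 73 passed the filter on low values through the oocytes alone. With limma on log2(FPKM + 1), adjusted over all 12428 detected genes at a false discovery rate of 0.01, 0 of the 73 genes were higher and 0 were lower in innerCCs than in outerCCs (16 against 16 libraries), where all detected genes gave 0.0% and 77.4%. At an unadjusted limma p under 0.05, 0 of the 73 genes were higher and 3 lower (SNORA20, ENSBTAG00000031558 and ENSBTAG00000031721), against 0.0322% and 83.2% of all detected genes, and no other tool was run. Nothing is read from these counts, which do not show that the genes were equal in both cumulus types. The median log2 difference was -0.13 for the 73 genes (0.19 without COC 191) and -1.42 for all detected genes, and the innerCC libraries of COCs 176 to 184 held few genes of any kind.

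The wider pathways of these genes were read from lists of 129 genes, of which 60 could be matched to a symbol and 14 belong to the set. Of the other 46, limma called 38 higher and 5 lower in oocytes than in outerCCs (over all detected genes 43.4% and 34.3%, or 5394 and 4260 genes, which became 4498 and 5502 with each library scaled to the same 75th percentile), and 40 higher and 2 lower than in innerCCs (63.2% and 4.53%). The 2 comparisons share the oocytes. For 42 of the 46 the symbol itself came from gene lists drawn on this contrast, so these counts support nothing about the pathways. All 14 meiotic chromosome genes (led by TEX12 of the synaptonemal complex, with a log2 difference of 5.96 against outerCCs), all 11 piRNA genes (led by FKBP6, 5.73) and all 3 NLRP and subcortical complex genes (led by NLRP5, 4.75) were higher, as were 7 of 8 cap-binding and stored mRNA genes (led by YBX2, which binds stored mRNA, 5.36). Of 6 tight junction genes 2 were higher (CLDN1, 2.36, and CLDN11, 1.95) and 4 lower (JAM2, -4.85, CLDN7, -0.64, CLDN3, -0.53, and TJP3, -0.39). CLDN7, CLDN3 and TJP3 lay near the detection threshold, with median FPKM in outerCCs of 0.487, 0.502 and 0.583. TJP3 did not pass with the COC as a block (limma adjusted p = 0.0142). Within COCs 185 to 192 neither CLDN7 nor TJP3 passed (limma adjusted p = 0.0381 and 0.0394). MSH4 of the meiotic chromosome list did not pass within these COCs either, against outerCCs or innerCCs (limma adjusted p = 0.0208 and 0.0118). MSH4 and SYCE1 of that list lay near the detection threshold, with median FPKM in oocytes of 0.569 and 0.527. In the list around MOS and CDK1, FBXO43, an inhibitor of the anaphase-promoting complex, was higher (3.98) and WEE1, the somatic relative of WEE2, lower (-2.71).

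Symbols of 4 pathway genes did not come from that contrast. EIF4E, the general cap-binding protein and relative of EIF4E1B, was at 197 to 1253 FPKM in oocytes (median 793) and at 22.9 to 196 in outerCCs (median 64.0), a log2 difference of 3.44 (SE 0.265, limma adjusted p = 2.29e-14). The lowest oocyte lay just above the highest outerCC. EIF4E was thus the more abundant relative in oocytes, and the cumulus cells carried it as well. EIF4E2, another cap-binding protein, differed by 1.58 (SE 0.278, limma adjusted p = 3.25e-06). PATL1 (-0.35, SE 0.188, limma adjusted p = 0.0826) and CDC25A (0.30, SE 0.248, limma adjusted p = 0.257), a decay factor and a phosphatase that activates CDK1, did not pass the test, although PATL1 did with libraries scaled to the same 75th percentile (-0.71, limma adjusted p = 0.000767). Against innerCCs the log2 differences were 5.31, 3.59, 0.56 and 1.11 (limma adjusted p = 1.23e-09, 8.94e-11, 0.0147 and 0.00089). The CDC25A call was lost within COCs 185 to 192 (0.96, limma adjusted p = 0.0326), and PATL1 passed with a pseudocount of 0.1 (limma adjusted p = 0.00272).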

How the data were processed

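PolyA+ RNA was sequenced from 48 libraries. The authors aligned reads to UMD3.1 with STAR 2.5.2, discarded reads with several matches and, with Picard 2.5, duplicate reads, and obtained FPKM per Ensembl gene from Cufflinks 2.2.1. The deposited FPKM were used unfiltered, and a table filtered by the authors was not used. The files give no fragment counts, so depth is unknown, and relative depths were taken from the smallest FPKM increments. The authors tested counts with a collection batch as a term; which COCs belong to each batch is not given in the sources used here, so no batch term was fitted. Symbols came from the study's supplementary gene lists, names only.

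Values were computed with Python 3.11.15, pandas 2.3.3, scipy 1.17.1, R 4.3.3 and limma 3.58.1 (log2(FPKM + 1), genes over 0.5 FPKM in 8 or more libraries of a type, Benjamini-Hochberg). The limma step was tested on simulated data. Correlations used 100000 permutations, or all permutations within sets. The genes and lists were chosen with earlier results of these data known. Named genes were the up to 5 most abundant of each list and without a symbol, those at the threshold, in the pairs or with extreme CVs, and the pathway genes with the largest differences; others are marked as picked later, and 1 gene that this rule names is not reported here. A shared number marks libraries of the same COC. Their deviations from the type mean correlated at 0.0102 (oocyte and outerCC), 0.0480 (oocyte and innerCC) and 0.154 (innerCC and outerCC) on average, and the COC number was also fitted as a block. Alternatives covered the pseudocount, filters, scaling, detection rule, CV formula, the block and COCs left out. No sequences or coordinates were available for these identifiers and none are given.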

Additional observations from a re-analysis of the deposited data

How the results depend on the processing

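Of the 142 recomputed values, 124 kept their direction and their side of the threshold or, where no test was run, moved by less than the spread between COCs or, for counts, by less than 1.5 times. Among these, scaling to the same 75th percentile still moved the summed outerCC level from 0.708% to 1.24% of the oocytes. It shifted the median log2 difference of all genes between oocytes and outerCCs from 0.25 to -0.25. The number of genes chosen was 92 with FPKM over 1, 70 with the median in place of the mean, 78 without COC 191, 90 without COCs 180 and 190 and 84 without COCs 190 and 191. It fell to 25 when 12 or more oocytes and fewer than 4 samples of each cumulus type were required, a stricter rule by construction. The median CV was 0.615 from the natural log and 0.325 without COCs 180 and 190. With libraries scaled to the same 75th percentile, the correlation of MAEL and ADAD1 was 0.488 (adjusted permutation p = 0.0662), that of EIF4E1B and IGF2BP3 was -0.590 (adjusted permutation p = 0.0256), that of MOS and WEE2 turned to -0.116, CDC25A turned to -0.0658 against outerCCs, and PATL1 passed the test there at -0.71. Spearman's rho of EIF4E1B and IGF2BP3 with this scaling was -0.429 (adjusted permutation p = 0.118). OCLN and CLDN10 with this scaling gave r = 0.590 once COCs 180 and 190 were left out. Without COCs 180 and 190 and without scaling, OCLN and CLDN10 gave 0.460 and MAEL and ADAD1 gave 0.0531. EIF4E1B and IGF2BP3 gave -0.0465 in that setting (adjusted permutation p = 0.876). Of the pathway genes lower in oocytes than in outerCCs, 5 in the main comparison, 2 were called with the filter at FPKM over 1 and 3 with COCs 185 to 192. With the COC number as a replicate block, the pathway genes lower than in innerCCs numbered 1 in place of 2 (WEE1 no longer passed), as they did with no filter and without COC 191, and PATL1 against innerCCs passed the test (limma adjusted p = 0.00782); TJP3 against outerCCs no longer passed, which left 4 lower in place of 5, and the block changed no other call among the pathway genes. The cause of these changes was not tested. Scaling could not be run against innerCCs, since the 75th percentile was 0 in some of these libraries. The settings without COCs 180 and 190 or without COCs 190 and 191 were chosen after seeing the data. Depth sets what 0 means: a gene listed at 0 in a shallow library may be below detection.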
